A study of Mus musculus with 18 samples.

Results

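The comparison described here set thymocytes sorted as SP4 (CD4+CD8-) against thymocytes sorted as CD69+ DP (CD4+CD8+CD69+). By their sort labels, these are cells past the double positive (DP) stage and cells recently signalled through their T cell receptor (TCR). How many cells of other stages the SP4 sort held was not tested. Its arrays were chosen by population label alone: 6 SP4 and 6 CD69+ DP arrays, 12 of the 18 in the series, with 2 arrays of each of 3 genotypes in each population. The genotypes were Gli3-/-, Gli3+/- and WT on a C57BL/6 background, and the thymi were from fetuses at embryonic day 18.5. The remaining 6 arrays held CD69- DP cells and were used only to place the change beside the earlier step. Gli3 encodes a transcription factor of the Hedgehog pathway, and the mutation was constitutive, so thymic stroma and every other tissue of the fetus carried it as well as the thymocytes. Gli3 itself had a low signal, 27.9 to 31.5 in Gli3-/-, 27.6 to 34.0 in Gli3+/- and 32.4 to 37.1 in WT arrays of both populations, so the Gli3-/- arrays lay just below the WT arrays and the Gli3+/- arrays overlapped both. The cells were stained for CD4, CD8 and CD69 for the sort, and no stain for the TCR or a lineage marker of other cells is named. Whether the SP4 gate used CD69 is not stated. Sources used here do not say whether an array held cells of 1 fetus or of several. The p-values therefore measure the spread between these samples, which may be technical.

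In the thymus, a DP cell whose TCR binds self peptide and MHC receives a signal that induces CD69, keeps it alive and starts its choice between the CD4 and CD8 lineages. A cell selected on MHC class II ends transcription of Cd8a, keeps Cd4 and becomes SP4. It then takes up interleukin 7 signalling, changes its chemokine receptors and gains S1pr1, the receptor through which mature T cells leave the thymus.

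Intensities were normalised microarray transcript expression on a linear scale, and changes are log2 of SP4 over CD69+ DP, fitted with limma with genotype and replicate number as blocks. A gene was called where its p, adjusted over the 22180 genes tested (Benjamini-Hochberg), was under 0.05. Array means lay between 201.1 and 206.5 and the median gene had an intensity of 67.0. In bulk samples such as these, fewer cells of a type and less RNA per cell cannot be told apart.

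The population labels were first set against 2 markers of maturing CD4 cells that the sort did not use, Il7r and Cd40lg, and then against genes of the sort itself. Il7r, the interleukin 7 receptor alpha chain, ranged from 504 to 2190 in SP4 arrays (median 1370) and from 83.9 to 408 in CD69+ DP arrays (median 278). Cd40lg, the helper T cell ligand of CD40, ranged from 95.9 to 775 in SP4 arrays (median 289) and from 35.1 to 117 in CD69+ DP arrays (median 73.2). Il7r did not overlap between the populations, and Cd40lg overlapped only through the Gli3+/- SP4 replicate 2 array. The log2 changes were 2.45 for Il7r (SE 0.17, limma adjusted p = 4.41e-06) and 2.08 for Cd40lg (SE 0.15, adjusted p = 4.72e-06), each higher in SP4 in 6 of 6 pairs of the same genotype and number.

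Of the genes behind the sort for CD4 and CD8, only Cd8a passed the test. Cd8a ranged from 1120 to 2690 in SP4 arrays (median 2150) and from 2950 to 4100 in CD69+ DP arrays (median 3540). Every SP4 array thus lay below every CD69+ DP array, with WT replicate 1 the lowest. The log2 change of Cd8a was -0.80 (SE 0.15, limma adjusted p = 0.00335), with -0.48 in Gli3-/-, -0.59 in Gli3+/- and -1.32 in WT, so the mean decrease in cells sorted as CD8- was under 2-fold. Cd8b1, which encodes the CD8 beta chain, ranged from 1720 to 3370 in SP4 and from 2880 to 4310 in CD69+ DP arrays and did not pass the test (log2 -0.33, adjusted p = 0.0826). Cd4 had medians of 1080 in SP4 and 1070 in CD69+ DP arrays and overlapped throughout (log2 0.03, adjusted p = 0.924). Within replicate number 1 its log2 difference was 0.34 and within number 2 it was -0.29. Zbtb7b, which encodes the CD4 lineage factor ThPOK, had medians of 83.9 in SP4 and 69.3 in CD69+ DP arrays (log2 0.29, adjusted p = 0.0589).

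Of the 22180 genes, 2548 were called (11.5%). They comprised 1770 genes higher in SP4 (7.98%) and 778 lower (3.51%). The shares of each gene list given in brackets below are to be read beside these shares of all genes. Most changes were small, with a median log2 change of 0.46 among the genes called higher and -0.34 among those called lower, and 151 called genes were at least 2-fold higher and 10 at least 2-fold lower. All 6 SP4 arrays lay above all 6 CD69+ DP arrays for 684 genes (3.08%) and below them for 305 genes (1.38%). The median log2 change of all genes was -0.02. Every one of the 2548 called genes had the same sign within both replicate numbers, and 2545 had it in all 3 genotypes. The pooled change averages over these same arrays, so a called gene would mostly share its sign with the parts. These counts are therefore not an independent check. Without the replicate block, 1476 genes were called, all of them among the 2548, and with quantile normalisation 1430 were called higher and 1202 lower. Among genes named in the text, the calls of Ms4a4b, Cd2, Tnf, Birc5, Tnfaip3, Gimap7, Gimap8, Fdps, Gzmb, C1qb, Epcam, Ndc80, Shcbp1 and Rgs1, and of others said below, were lost without the replicate block. Leaving out WT SP4 replicate 1 left 500 genes called lower.

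**Figure D1:**
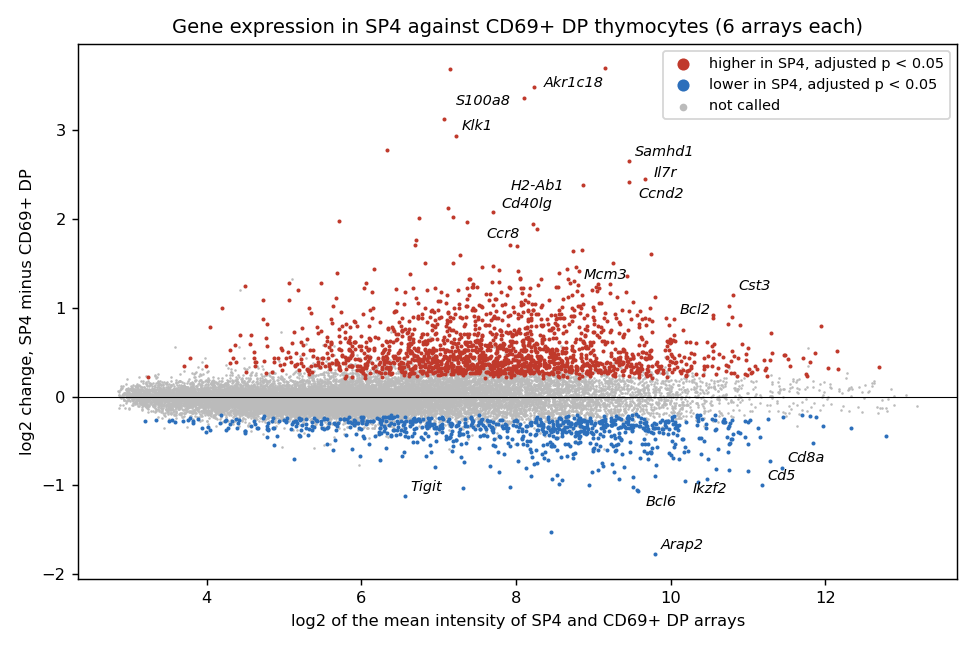
Log2 change of SP4 over CD69+ DP (y axis) against log2 of the mean intensity of the 12 arrays (x axis), 1 point per gene, with called genes in red (1770 higher in SP4) and blue (778 lower). The largest changes lie on the upper side, where Akr1c18 and S100a8 exceed 3 log2 units, and on the lower side Arap2, at -1.78, lies farthest from 0 of the genes named.

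The largest changes among genes whose arrays did not overlap were increases. Akr1c18, a hydroxysteroid dehydrogenase that inactivates progesterone, ranged from 178 to 1090 in SP4 arrays (median 550) and from 35.1 to 54.4 in CD69+ DP arrays (median 41.8), a log2 change of 3.49 (SE 0.23, limma adjusted p = 3.39e-06). Klk1, a kallikrein protease, ranged from 167 to 345 in SP4 and from 19.4 to 51.5 in CD69+ DP arrays (log2 2.94). Samhd1, a phosphohydrolase that depletes deoxynucleotides and restricts retroviruses, ranged from 678 to 1650 in SP4 arrays (median 1220) and from 128 to 246 in CD69+ DP arrays (median 198). Its log2 change of 2.65 had the smallest adjusted p of the genes named here (SE 0.12, adjusted p = 1.29e-07) and was 2.56 in Gli3-/-, 2.47 in Gli3+/- and 2.93 in WT. Ccnd2, which encodes cyclin D2, ranged from 514 to 2040 in SP4 and from 144 to 286 in CD69+ DP arrays (log2 2.42), and Adam19, a membrane metalloprotease, from 176 to 810 in SP4 and from 96.0 to 133 in CD69+ DP arrays (log2 1.89). For Samhd1, Ccnd2, Adam19, Akr1c18, Il7r and Cd40lg the lowest of the 6 SP4 arrays was Gli3+/- replicate 2 and the highest WT replicate 1.

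Of 30 measured genes of maturation and egress, 12 were called higher (40%) and 1 lower (3.33%). The list median was 0.15 against -0.02 for all genes. S1pr1 ranged from 93.1 to 149 in SP4 arrays (median 116) and from 48.2 to 65.4 in CD69+ DP arrays (median 60.7), with no overlap (log2 0.96, SE 0.11, limma adjusted p = 8.02e-05) and a change of 0.96 within each replicate number. Its transcriptional activator Klf2 ranged from 256 to 452 in SP4 and from 135 to 271 in CD69+ DP arrays, which overlapped through the highest CD69+ DP array, Gli3+/- replicate 2 (log2 0.75, adjusted p = 0.000527). Ccr7, the receptor that draws selected cells to the thymic medulla, ranged from 209 to 714 in SP4 arrays (median 334) and from 100 to 204 in CD69+ DP arrays (median 168), a log2 change of 1.22 (SE 0.18, adjusted p = 0.000533). Ly6c2, a surface antigen of peripheral T cells and of monocytes, had a log2 change of 1.97, with 1.33 within number 1 and 2.61 within number 2. Ms4a4b, a membrane protein of mature T cells, was the weakest of those named (log2 0.80, adjusted p = 0.00692). The count of genes called higher on this list was 11 to 13 when each array was left out in turn.

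**Figure D2:**
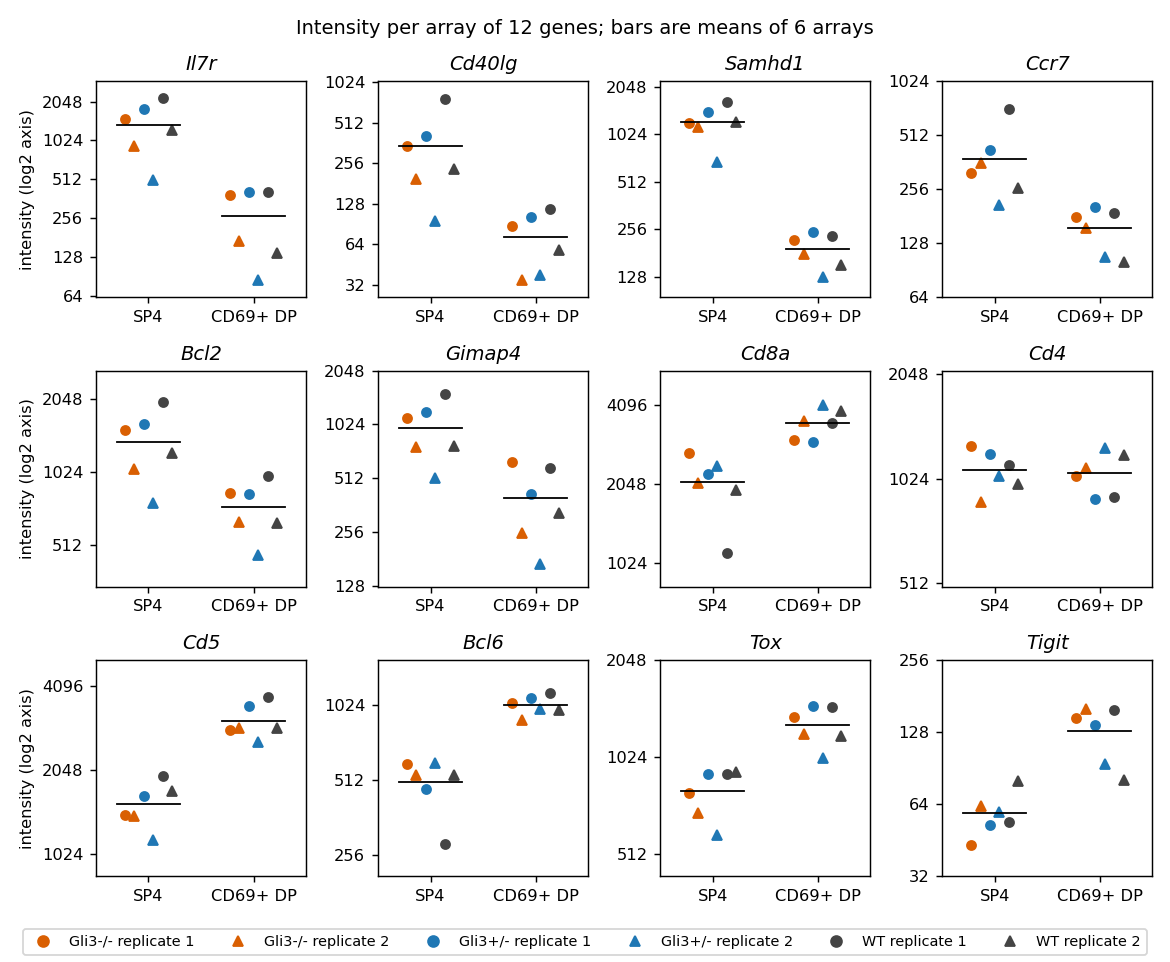
Intensity on a log2 axis (y) of 12 genes in SP4 and CD69+ DP arrays (x), 1 point per array, with colour for genotype, shape for replicate number and a bar at the mean of 6 arrays. Il7r, Samhd1 and Ccr7 lie wholly higher in SP4 and Cd8a, Cd5, Bcl6, Tox and Tigit wholly lower, while Cd4 overlaps.

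The receptors for cytokines split by member. Of 29 measured genes of cytokine receptors, their Jak and Stat transducers and Socs inhibitors, 8 were called higher (27.6%) and 6 lower (20.7%). The list median was 0.14. Besides Il7r, the interleukin 2 receptor chains rose: Il2rb ranged from 139 to 473 in SP4 and from 76.6 to 127 in CD69+ DP arrays (log2 1.32), and Il2ra from 387 to 574 in SP4 and from 208 to 301 in CD69+ DP arrays (log2 0.89). Cish, a STAT5-induced inhibitor of cytokine signalling, ranged from 119 to 219 in SP4 and from 65.0 to 96.5 in CD69+ DP arrays (log2 0.95, limma adjusted p = 0.000352). None of these 3 genes overlapped between populations. Il6st, the signalling chain shared by the interleukin 6 family, and the interleukin 4 receptor chain Il4ra fell without overlap. Il6st ranged from 439 to 755 in SP4 and from 830 to 1380 in CD69+ DP arrays (log2 -0.90, adjusted p = 2.91e-05), and Il4ra from 266 to 360 in SP4 and from 460 to 628 in CD69+ DP arrays (log2 -0.69, adjusted p = 5.92e-05).

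Among 23 genes of chemokine and migration receptors, 8 were called higher (34.8%) and 2 lower (8.7%), with a median of 0.14. Ccr8, a receptor of mature CD4 thymocytes, ranged from 201 to 942 in SP4 and from 88.5 to 163 in CD69+ DP arrays (log2 1.95, limma adjusted p = 4.06e-05). Ccr2, the monocyte chemoattractant receptor, had a log2 change of 1.11, and Itgae, the alpha E integrin chain, of 1.0, with 0.49 within replicate number 1 and 1.51 within number 2 for the integrin. Ccr9, which holds DP cells in the cortex through Ccl25, fell: it ranged from 689 to 1080 in SP4 and from 1200 to 1660 in CD69+ DP arrays (log2 -0.63, adjusted p = 5.66e-05). Ccr4 ranged from 168 to 471 in SP4 and from 277 to 796 in CD69+ DP arrays, overlapping (log2 -0.65, adjusted p = 0.0136). Its call was lost without the replicate block.

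Of 30 measured genes that a TCR signal induces, 9 were called lower in SP4 (30%) and 4 higher (13.3%), with a median of -0.18. Cd5, a surface inhibitor whose level follows the strength of TCR signalling, ranged from 1150 to 1960 in SP4 arrays (median 1530) and from 2580 to 3760 in CD69+ DP arrays (median 2910), a log2 change of -1.0 (SE 0.09, limma adjusted p = 9.93e-06). Its relative Cd6 ranged from 395 to 528 in SP4 and from 697 to 1030 in CD69+ DP arrays (log2 -0.93). Neither overlapped, and the change of Cd5 was -1.01 within number 1 and -0.99 within number 2. The transcription factors Egr2 (log2 -0.67), Egr1 (-0.63) and Nr4a1 (-0.62) were also called lower, with overlapping arrays. Nr4a1 ranged from 508 to 829 in SP4 and from 761 to 1500 in CD69+ DP arrays. Cd69 itself, the marker by which the CD69+ DP cells were sorted, ranged from 539 to 894 in SP4 arrays (median 666) and from 675 to 1420 in CD69+ DP arrays (median 1060) (log2 -0.58, adjusted p = 0.00295). The call of Cd69 was lost without the replicate block. An exception was Rgs16, a regulator of G protein signalling, which was higher in SP4 (111 to 229 in SP4 and 71.1 to 90.0 in CD69+ DP arrays, log2 0.96).

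The signalling machinery under the TCR changed by small amounts. Of 23 measured genes, 15 were called lower (65.2%) and 1 higher (4.35%), with a median of -0.29. Their summed intensity ranged from 30299 to 33382 in SP4 and from 36090 to 40642 in CD69+ DP arrays, without overlap. Camk4, a calcium-dependent kinase, ranged from 853 to 1010 in SP4 arrays (median 942) and from 1350 to 1440 in CD69+ DP arrays (median 1380), the tightest separation of those named (log2 -0.57, SE 0.06, limma adjusted p = 5.68e-05). Rasgrp1, the activator of Ras behind the TCR, ranged from 1530 to 1810 in SP4 and from 2070 to 2700 in CD69+ DP arrays (log2 -0.53). Themis, needed for positive selection, had a log2 change of -0.52, the co-stimulatory receptor Cd28 of -0.50, Prkcq, which encodes protein kinase C theta, of -0.48, and the adhesion receptor Cd2 of -0.46, each with overlapping arrays. The count moved with the choice of arrays and block: 11 to 13 genes were called lower when each array was left out in turn, 8 without the replicate block, 9 within replicate number 1 alone and 2 within number 2 alone.

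Among the genes named for their decrease, Arap2, a GTPase-activating protein for Arf6, ranged from 275 to 532 in SP4 arrays (median 393) and from 857 to 1880 in CD69+ DP arrays (median 1390), a log2 change of -1.78 (SE 0.11, limma adjusted p = 3.02e-06). Tigit, an inhibitory receptor, ranged from 43.4 to 80.3 in SP4 and from 81.3 to 160 in CD69+ DP arrays (log2 -1.12, adjusted p = 0.00113), so the highest SP4 array, WT replicate 2, nearly met the lowest CD69+ DP array, also WT replicate 2. Bcl6, a repressor that DP cells express, ranged from 283 to 597 in SP4 arrays (median 538) and from 895 to 1150 in CD69+ DP arrays (median 1020), with WT SP4 replicate 1 far below the other SP4 arrays (log2 -1.07). The nuclear co-repressor Nrip1 (log2 -1.05), the zinc finger factor Hivep2 (-1.02), the small GTPase Rab19 (-1.02), the SNARE Vamp1 (-0.99), the sodium-proton exchanger Slc9a9 (-0.96) and the actin-binding calponin Cnn3 (-0.91) also fell. So did Cd27, a co-stimulatory receptor of the TNF receptor family, which ranged from 871 to 1030 in SP4 and from 1700 to 2220 in CD69+ DP arrays (log2 -0.93, SE 0.07), with the same change of -0.93 within each replicate number. The genes of this paragraph were named on condition that their arrays did not overlap, which held in this direction for 305 of all genes (1.38%).

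Of 21 measured genes of the co-receptors and lineage factors, 6 were called lower (28.6%) and 2 higher (9.52%), with a median of -0.21. Tox, needed for CD4 lineage development, ranged from 588 to 920 in SP4 arrays (median 851) and from 1020 to 1480 in CD69+ DP arrays (median 1280), a log2 change of -0.69 (SE 0.09, limma adjusted p = 0.000173). Myb, a factor of immature thymocytes, ranged from 1110 to 2350 in SP4 and from 2990 to 3170 in CD69+ DP arrays (log2 -0.73), and Ikzf3, which encodes Aiolos, from 497 to 709 in SP4 and from 932 to 1030 in CD69+ DP arrays (log2 -0.61). In both, WT SP4 replicate 1 was the lowest array. Id2, an inhibitor of E proteins, rose: it ranged from 316 to 968 in SP4 and from 196 to 274 in CD69+ DP arrays (log2 1.41, adjusted p = 4.57e-05). Runx3, the factor of the CD8 lineage, was also higher, ranging from 108 to 163 in SP4 and from 79.0 to 100 in CD69+ DP arrays (log2 0.64).

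Of 25 measured genes of the DP stage, 8 were called lower (32%) and 2 higher, with a median of -0.12. The share called higher, 8% of the list, was near that of all genes (7.98%). Beside Bcl6, Cd8a, Ccr9 and Themis, the kinase-dead ephrin receptor Ephb6 was lower (224 to 308 in SP4 and 382 to 447 in CD69+ DP arrays, log2 -0.63). Ptcra, the pre-TCR alpha chain of earlier thymocytes, was higher (258 to 613 in SP4 and 129 to 378 in CD69+ DP arrays, log2 0.80), as was the fatty acid elongase Elovl6 (log2 0.72). The call of Ptcra was lost without the replicate block. The summed intensity of the list ranged from 14144 to 24214 in SP4 arrays (median 21060) and from 24015 to 29866 in CD69+ DP arrays (median 25810), and WT SP4 replicate 1 had the lowest sum. By genotype the median log2 change of the list was 0.06 in Gli3-/-, -0.04 in Gli3+/- and -0.51 in WT, a difference that was not tested for the list as a whole.

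The miR-181 family, which raises the sensitivity of DP cells to TCR ligands, was looked at after its values had been seen, since small RNAs were outside the rule for naming genes. The array measures the RNA of the precursor locus and not the mature miRNA. The RefSeq mature sequences (GRCm38.p6) are shown because the row of 1 locus was called and those of the others were not. All mature forms share 1 seed, bases 2 to 8, in capitals.
miR-181a-5p: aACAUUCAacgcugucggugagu
miR-181b-5p: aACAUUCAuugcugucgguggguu
miR-181c-5p: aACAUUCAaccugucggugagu
miR-181d-5p: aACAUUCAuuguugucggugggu
Mir181b-1, whose mature sequence lies at chr1:137966650-137966673 on the plus strand, ranged from 117 to 188 in SP4 arrays (median 145) and from 175 to 395 in CD69+ DP arrays (median 244), a log2 change of -0.78 (SE 0.15, limma adjusted p = 0.00422). Its arrays overlapped slightly, through Gli3-/- SP4 replicate 1. The other 5 loci of the family were not called: the log2 differences were 0.02 for Mir181a-1, -0.08 for Mir181a-2, -0.22 for Mir181b-2, -0.20 for Mir181c and 0.08 for Mir181d. Mir181a-1 lies close to Mir181b-1 on the same strand, with its mature sequence at chr1:137966468-137966490, and the rows of these neighbours disagreed. Whether both rows measure the same precursor RNA was not tested, so a change of the locus is not shown.

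Genes of survival and death were mixed, with 3 of 21 called higher (14.3%) and 3 lower (14.3%) and a median of 0.02. Those called higher were Bcl2, Bid and Birc5, the last also given below among the proliferation genes (log2 1.01). Bcl2, the anti-apoptotic protein that rises with maturation, ranged from 765 to 1990 in SP4 arrays (median 1380) and from 466 to 987 in CD69+ DP arrays (median 738), a log2 change of 0.87 (SE 0.09, limma adjusted p = 2.90e-05). Its arrays overlapped because number 2 arrays were low in both populations, and each pair of the same genotype and number was higher in SP4. The pro-apoptotic Bcl2l11 (Bim) was lower (log2 -0.44, adjusted p = 0.015), as was the death receptor Fas (-0.45), and the calls of Bcl2l11, Bid (0.27) and Cflar (-0.30) were lost without the replicate block. The Gimap GTPases, which support the survival of lymphocytes, did not move as one. Of 8 measured, 4 were called lower (50%) and 1 higher (12.5%), with a median of -0.25. Gimap4 ranged from 512 to 1520 in SP4 arrays (median 950) and from 170 to 633 in CD69+ DP arrays (median 373), a log2 change of 1.36 (SE 0.10, adjusted p = 5.43e-06). Gimap8 (log2 -0.68), Gimap6 (-0.62), Gimap1 (-0.34) and Gimap7 (-0.27) went the other way. Few NF-kappaB genes were called: of 18, 1 was higher (5.56% beside 7.98% of all genes), the adhesion ligand Icam1 (0.32), and 2 were lower (11.1% beside 3.51%), Tnfaip3 (-0.39) and Nfkbiz (-0.32).

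Among 22 genes of T cell help and co-stimulation, 5 were called higher (22.7%) and 5 lower (22.7%), with a median of 0.14. Beside Cd40lg, Tnfsf11, which encodes RANKL, the signal by which SP4 cells drive medullary epithelium, ranged from 59.8 to 108 in SP4 and from 35.4 to 53.5 in CD69+ DP arrays, without overlap (log2 0.80, limma adjusted p = 0.00024), and the cytokine Tnf was higher (0.60). The immune receptors Cd84 (-0.65), Cd96 (-0.64) and Cd28 were lower along with Cd27. Of 13 genes tied to regulatory T cells, 7 were called higher (53.8%) and 1 lower (7.69%), with a median of 0.32. Foxp3, the factor that defines the lineage, was not among them (49.6 to 53.5 in SP4 and 51.3 to 68.6 in CD69+ DP arrays, log2 -0.15, adjusted p = 0.234). The members that rose, Nrp1 (log2 1.29), Gpr83 (1.18), Itgae, Il2ra and Izumo1r (0.63) among them, are also made by other T cells. Ikzf2, which encodes Helios, fell without overlap and ranged from 692 to 848 in SP4 and from 1040 to 2020 in CD69+ DP arrays (log2 -0.95).

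Of 17 genes of CD8 and cytotoxic cells, 7 were called higher (41.2%) and none lower, with a median of 0.31. Gzmb, a cytotoxic granule protease, ranged from 48.6 to 248 in SP4 and from 40.2 to 73.9 in CD69+ DP arrays (log2 1.04, limma adjusted p = 0.00357), with 0.52 within replicate number 1 and 1.57 within number 2. The granule cathepsin Ctsw (1.17), the chemokine Xcl1 (0.78), the granule protein Nkg7 (0.71), Cst7 (0.64), an inhibitor of granule cathepsins, and the factor Tbx21 (0.31) completed the list with Runx3. Ctsw, Xcl1, Nkg7, Cst7 and Gzmb were each highest among SP4 arrays in Gli3-/- replicate 2. Of 13 genes of innate-like and gamma-delta T cells, 5 were called higher (38.5%) and 1 lower (7.69%), with a median of 0.16. Plac8 ranged from 303 to 520 in SP4 and from 93.4 to 152 in CD69+ DP arrays (log2 1.70). Zbtb16, which encodes PLZF, had 0.55, and Il17rb fell (-0.79). Markers of natural killer and lymphoid tissue inducer cells were called higher in 2 of 10 (20%), Kit (0.63) and Il1r1 (0.33). Their sum ranged from 474 to 702 in SP4 and from 427 to 472 in CD69+ DP arrays. Their part in the result was not tested.

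**Figure D3:**
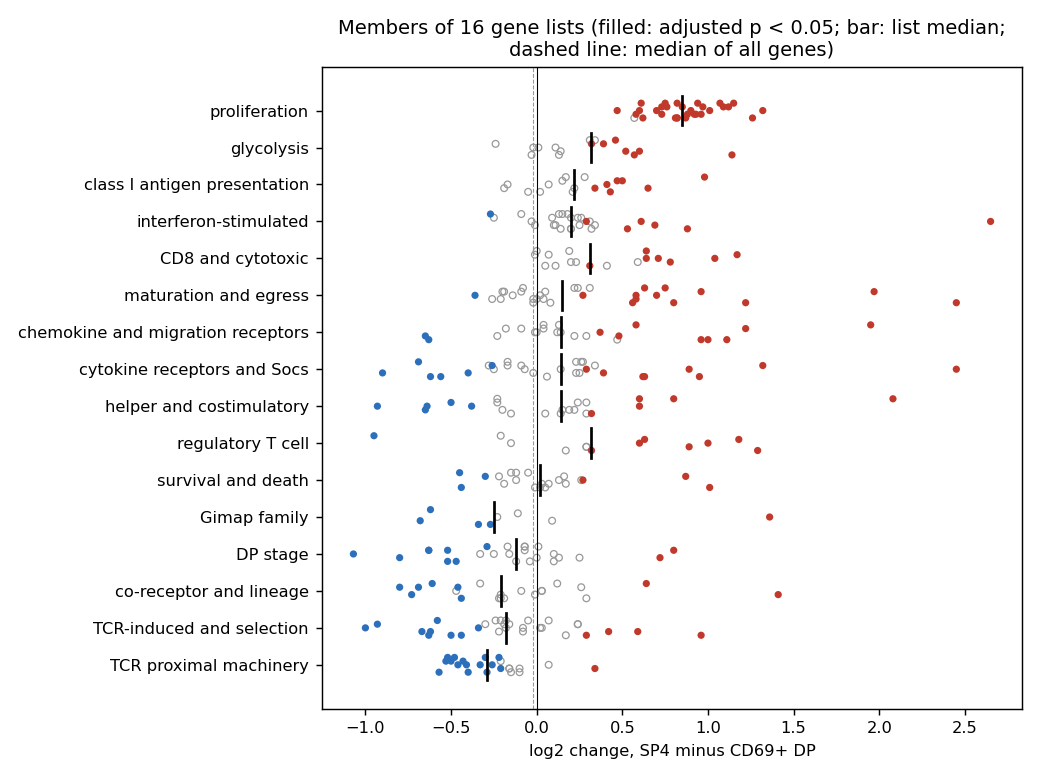
Log2 change of SP4 over CD69+ DP (x axis) of each measured member of 16 gene lists (rows), filled where called, with a bar at the list median and a dashed line at the median of all genes, -0.02. Members of the proliferation list lie to the right of 0 throughout (median 0.85) and those of the TCR machinery mostly to its left (median -0.29).

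Proliferation genes had the highest share of called members of the 30 lists. Of 31 measured, 30 were called higher in SP4 (96.8%) and none lower, with a median of 0.85 against -0.02 for all genes. Their summed intensity was 27283 to 37912 in CD69- DP arrays (median 34980), 10612 to 28522 in CD69+ DP arrays (median 15860) and 24118 to 34030 in SP4 arrays (median 27520), so the CD69+ DP arrays held the low point between 2 higher stages. Mcm3, a subunit of the replicative helicase, ranged from 472 to 698 in SP4 arrays (median 667) and from 181 to 383 in CD69+ DP arrays (median 272), a log2 change of 1.26 (SE 0.11, limma adjusted p = 1.15e-05). Mcm5 ranged from 294 to 601 in SP4 and from 114 to 294 in CD69+ DP arrays (log2 1.32), and Mcm6 from 1050 to 1380 in SP4 and from 455 to 818 in CD69+ DP arrays (log2 1.12). The nucleotide enzymes Tyms (1.15) and Rrm1 (1.07), the spindle checkpoint kinase Bub1 (1.09) and the mitotic regulator Birc5 (1.01) were higher with overlapping arrays.

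The size of this change went with the replicate number. The median log2 change of the list was 1.25 within number 1 and 0.47 within number 2, and the CD69+ DP arrays of number 2 had the higher sums, up to 28522 in Gli3+/- replicate 2. The number of members called higher was 31 within number 1 alone, 5 within number 2 alone and 11 of 31 without the replicate block, and it stayed between 29 and 31 when each array was left out in turn. What the number marks, such as a litter or a day, is not given in the labels.

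Promoter sequence is shown for 3 replication genes that were higher in SP4 and that all hold an E2F-type motif, in capitals. The motifs searched were TTTGGCGC, TTTCCCGC, TTTCGCGC and TTTGCCGC on both strands, which can overlap each other. Within 250 bases before to 50 after the RefSeq start (GRCm38.p6) at least 1 of them was found in 744 of 32851 promoters (2.26%) and in 5 of the 26 proliferation genes with a promoter in the table (19.2%). Most proliferation genes with a promoter thus held none, though 30 of the 31 measured genes of the list were called higher. Hells, a chromatin remodeller of replicating cells that is not on the list, is shown beside Mcm5 and Mcm6 for its change (log2 1.64, 599 to 688 in SP4 and 161 to 410 in CD69+ DP arrays). The stretches are, on their own strand, chr8:75109329-75109408 (plus) for Mcm5, chr1:128359726-128359835 (minus) for Mcm6 and chr19:38930890-38930969 (plus) for Hells.
Mcm5: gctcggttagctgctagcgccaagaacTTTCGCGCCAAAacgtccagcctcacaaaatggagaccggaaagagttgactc
Mcm6: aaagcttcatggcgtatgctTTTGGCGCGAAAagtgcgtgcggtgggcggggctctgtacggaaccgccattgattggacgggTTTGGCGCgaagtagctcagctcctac
Hells: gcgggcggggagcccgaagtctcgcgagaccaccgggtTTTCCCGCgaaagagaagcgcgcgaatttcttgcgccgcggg
The Mcm5 and Mcm6 stretches each hold a motif that overlaps a second one on the opposite strand. A match is a description of the letters and was not a measure of binding in these cells.

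Some genes of metabolism and antigen presentation were higher in SP4. Of 16 glycolysis genes, 7 were called higher (43.8%) and none lower, with a median of 0.32. Tpi1, triosephosphate isomerase, ranged from 527 to 701 in SP4 arrays (median 666) and from 213 to 379 in CD69+ DP arrays (median 290), a log2 change of 1.14 (SE 0.14, limma adjusted p = 0.000113), and pyruvate kinase Pkm had 0.60, Pgk1 0.57 and Pfkl 0.52. Of 20 cholesterol genes, 5 were called higher (25%), with a median of 0.19. Farnesyl diphosphate synthase Fdps had 0.52 and squalene epoxidase Sqle 0.46. Of 17 genes of class I presentation, 7 were called higher (41.2%) and none lower, with a median of 0.22. H2-K1, a class I heavy chain, ranged from 233 to 476 in SP4 and from 163 to 234 in CD69+ DP arrays (log2 0.98). Its lowest SP4 array was Gli3-/- replicate 1, which was also lowest for 16 of the 20 dendritic and myeloid genes called higher, given below. The chaperones Calr (0.65), Pdia3 (0.43) and Canx (0.41) and the immunoproteasome subunit Psmb9 (0.50) did not overlap. B2m, the light chain of class I, ranged from 4740 to 5650 in SP4 and from 4060 to 5060 in CD69+ DP arrays and was not called (log2 0.21, adjusted p = 0.0911).

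Of 27 interferon-stimulated genes, 6 were called higher (22.2%) and 1 lower (3.7%), with a median of 0.20. Samhd1 stood well apart from the rest. The next was the membrane protein tetherin, Bst2 (415 to 603 in SP4 and 201 to 344 in CD69+ DP arrays, log2 0.88). The heat shock genes Hspa1a and Hspa1b led the 5 of 22 immediate early and stress genes called higher (22.7%). None was called lower, and the median was 0.16. Hspa1a ranged from 181 to 1240 in SP4 arrays (median 792) and from 84.5 to 448 in CD69+ DP arrays (median 186), a log2 change of 1.65 (SE 0.29, limma adjusted p = 0.00202). The spread within each population was wide, with WT replicate 1 the lowest and Gli3-/- replicate 2 the highest array in both, and the calls of Hspa1a and Hspa1b were lost without the replicate block.

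Markers of other cell types differed between the populations too, chiefly those of dendritic and myeloid cells. Of 12 dendritic cell genes, 8 were called higher in SP4 (66.7%) and none lower, with a median of 0.60. Their sum ranged from 2653 to 5708 in SP4 arrays (median 4375) and from 1723 to 1948 in CD69+ DP arrays (median 1837). H2-Ab1, an MHC class II beta chain, ranged from 279 to 1260 in SP4 arrays (median 822) and from 104 to 192 in CD69+ DP arrays (median 130), a log2 change of 2.39 (SE 0.15, limma adjusted p = 3.02e-06). H2-Aa had a log2 change of 2.02, the factor Irf8 of 1.51, H2-Eb1 of 1.18, the protease inhibitor Cst3 of 1.14 and Siglech, a receptor of plasmacytoid dendritic cells, of 0.76, and none of these 5 overlapped. Of 18 neutrophil genes, 5 were called higher (27.8%), with a median of 0.18. They were led by S100a8 and S100a9 (log2 2.13). S100a8 ranged from 126 to 619 in SP4 arrays (median 538) and from 19.9 to 226 in CD69+ DP arrays (median 26.5). Its log2 change was 3.37 (SE 0.44, limma adjusted p = 0.000202). Of 21 macrophage and monocyte genes, 7 were called higher (33.3%) and 1 lower (4.76%), with a median of 0.05. Lyz2 had 1.71 and the adaptor Tyrobp 1.46. C1qa, a defining gene of tissue macrophages, was not called (97.6 to 121 in SP4 and 113 to 145 in CD69+ DP arrays, log2 -0.16, adjusted p = 0.248), and C1qb was the gene called lower (-0.35). The neutrophil sum ranged from 954 to 1905 in SP4 and from 754 to 1247 in CD69+ DP arrays, and the macrophage sum from 1471 to 2718 in SP4 and from 1351 to 1621 in CD69+ DP arrays.

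The SP4 arrays were ranked on these genes and on the maturation and proliferation genes. Among the 20 genes called higher on the dendritic, macrophage and neutrophil lists, Gli3-/- SP4 replicate 1 was the lowest SP4 array for 16 and WT SP4 replicate 2 the highest for 11. Among the 30 proliferation genes called higher, Gli3-/- replicate 1 was lowest for 14 and WT replicate 1 for 13, and Gli3-/- replicate 2 was highest for 25. Among the 12 maturation genes called higher, the lowest was Gli3+/- replicate 2 for 4 and Gli3-/- replicate 1 for 3, and the highest was WT replicate 1 for 5 and Gli3-/- replicate 2 for 6. Ifi205 (log2 2.01), of the interferon-inducible family of DNA sensors, and Plbd1 (1.71), a phospholipase, were also lowest among SP4 arrays in Gli3-/- replicate 1. Lists of B cells, erythroid and mesenchymal cells held 0 called genes. That of thymic epithelium held 1 called higher (8.33%), Epcam (0.39), and that of endothelium 1 called lower in SP4 (12.5%), Pecam1 (-0.32). Dim signal limits these lists, since 8 of 9 B cell, 6 of 8 erythroid, 5 of 9 mesenchymal, 7 of 12 thymic epithelial and 6 of 8 endothelial genes lay below the median gene. Of the 4 sex-linked genes 0 were called, but their sum set the WT replicate 1 label apart in both populations, at 1095 in SP4 (3333 to 4910 in the other SP4 arrays) and 1340 in CD69+ DP (3655 to 4776 in the others). This label also held the SP4 array that was lowest for Cd8a, Cd8b1, Myb, Ikzf3 and Bcl6, and the part of this difference in those values was not tested. How far other cells in the gate contributed to any change of a single gene was not tested.

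**Figure D4:**
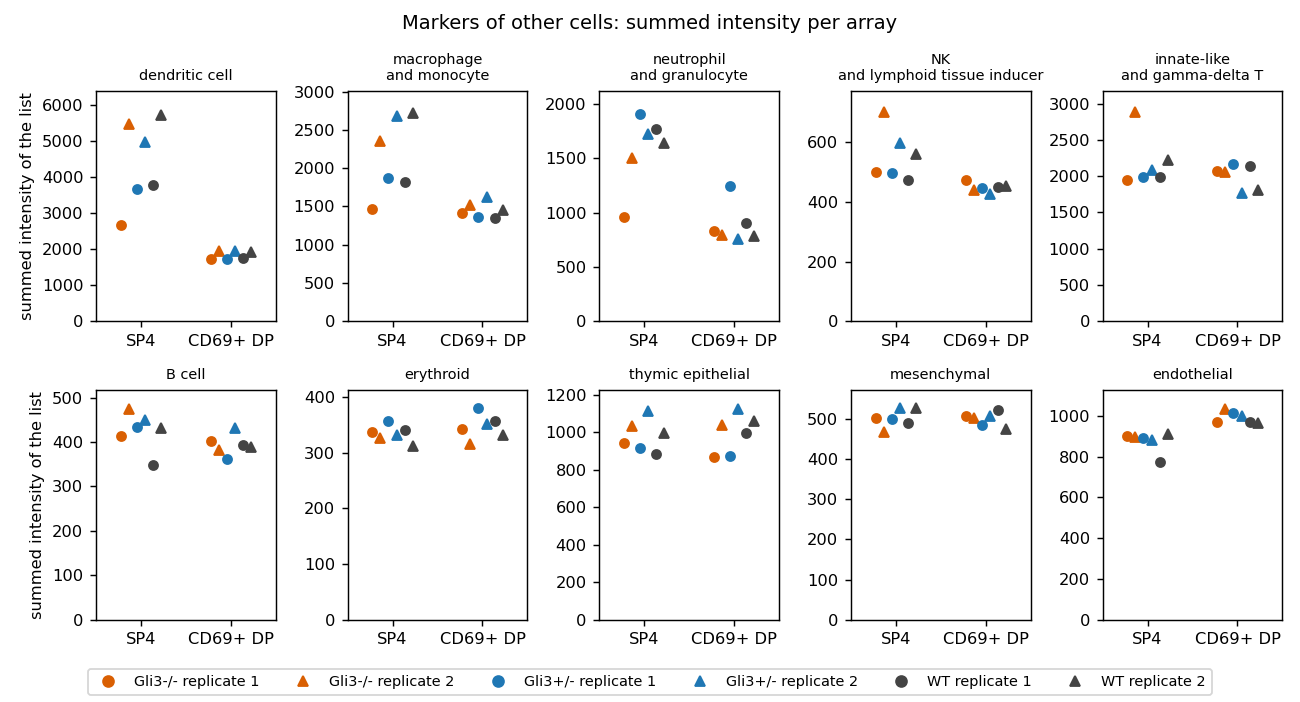
Summed intensity (y axis, from 0) of 10 lists of markers of other cells in SP4 and CD69+ DP arrays (x axis), 1 point per array, with colour for genotype and shape for replicate number. The dendritic list is higher in all 6 SP4 arrays (2653 to 5708) than in any CD69+ DP array (1723 to 1948), while B cell, erythroid and mesenchymal sums overlap.

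Promoter sequence of the class II genes is shown because H2-Aa, H2-Ab1 and H2-Eb1 moved together, with the Y box letters CTGATTGG, the element shared by class II promoters, in capitals. The letters, on either strand, stood in 1346 of the 32851 RefSeq promoters (4.1%). H2-Ab1 had no entry among these promoters, so its sequence was not searched and is not shown. The stretches run from 100 to 21 bases before the start, at chr17:34287844-34287923 (minus) for H2-Aa and chr17:34305767-34305846 (plus) for H2-Eb1 in GRCm38.p6.
H2-Aa: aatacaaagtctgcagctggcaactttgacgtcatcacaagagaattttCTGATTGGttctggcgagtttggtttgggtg
H2-Eb1: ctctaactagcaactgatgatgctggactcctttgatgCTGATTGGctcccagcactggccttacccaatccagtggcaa
H2-Aa ranged from 94.1 to 354 in SP4 and from 46.0 to 64.6 in CD69+ DP arrays, and H2-Eb1 from 81.4 to 182 in SP4 and from 50.6 to 66.0 in CD69+ DP arrays. Gli3-/- replicate 1 was the lowest SP4 array for both, as for H2-Ab1.

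Whether the change differed between genotypes was tested as an interaction of population with genotype. No gene passed (limma moderated F test, 0 of 22180 called or 0%, smallest adjusted p = 1), with 885 genes at an unadjusted p under 0.05. The term for Gli3-/- against WT alone called 0 genes as well, with a smallest adjusted p of 0.537 and 1158 genes unadjusted. With no difference between genotypes, a share of about 0.05 of the 22180 genes would fall under that unadjusted p. Neither unadjusted count by itself therefore shows a difference. Each genotype had 2 arrays in each population, which limits the precision. Fitted alone, the Gli3-/- arrays gave 645 called genes, the Gli3+/- arrays 129 and the WT arrays 534, counts that do not by themselves show a difference. For Il7r the log2 change was 2.20 in Gli3-/-, 2.36 in Gli3+/- and 2.80 in WT. For Ccr7 it was 0.99 in Gli3-/-, 1.01 in Gli3+/- and 1.65 in WT. WT SP4 replicate 1 was the highest SP4 array for both genes, at 2190 for Il7r and 714 for Ccr7. Tigit changed by -1.55 in Gli3-/-, -1.03 in Gli3+/- and -0.78 in WT, and Cd5 by -1.04 in Gli3-/-, -1.12 in Gli3+/- and -0.85 in WT. None of these differences between genotypes passed the interaction test.

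Between replicate numbers the change differed for 28 genes, with 8 larger (0.0361%) and 20 smaller (0.0902%) in number 2. The smaller ones named here were genes of mitosis and replication: Ndc80, a kinetochore subunit, had a log2 change of 0.45 in number 2 and 1.93 in number 1 (difference -1.48, limma adjusted p = 0.00654), and Shcbp1 (-1.36), Cenpk (-1.28), Bub1 (-1.24), Cenpf (-1.24) and Kif15 (-1.22) differed likewise. Genes with a larger change in number 2 included Rgs1, a regulator of G protein signalling (difference 1.24, adjusted p = 0.0209), and Mpeg1, the pore-forming protein of macrophages (1.23, adjusted p = 0.0184). The count rested on single arrays, since it was 0 without Gli3+/- CD69+ DP replicate 1, 1 without Gli3+/- CD69+ DP replicate 2, Gli3+/- SP4 replicate 1 or Gli3-/- SP4 replicate 1, 2 without WT SP4 replicate 1, 8 without Gli3+/- SP4 replicate 2, 13 without Gli3-/- CD69+ DP replicate 1 and 15 without WT CD69+ DP replicate 1.

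The step was then set beside the earlier one, CD69- DP to CD69+ DP, in a fit of all 18 arrays. Both steps share the CD69+ DP arrays, so a high or low value there moves the 2 changes in opposite directions, and the values stand side by side with the difference tested directly. The second change minus the first was called for 2574 genes, 1690 with a positive difference (7.62%) and 884 with a negative one (3.99%). Cd5 changed by 1.85 at the first step and -1.0 at the second, Arap2 by 1.75 and -1.78 (difference -3.53, limma adjusted p = 1.74e-09), Ikzf2 by 2.01 and -0.95, and Nr4a1 by 2.38 and -0.62. The chemokine receptor Ccr4 had the largest negative difference of those named, 3.31 at the first step and -0.65 at the second. Genes of replication took the reverse course: Lrr1, a substrate receptor that unloads the helicase, changed by -1.78 and then 1.76, the helicase relative Hells by -1.36 and 1.64, and the replication licensing inhibitor Gmnn by -1.49 and 1.39. Nrp1, a semaphorin co-receptor, also fell and rose, by -1.73 and 1.29.

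Other genes moved one way through both steps. Il7r had medians of 23.8 in CD69- DP, 278 in CD69+ DP and 1370 in SP4 arrays, with changes of 3.24 and 2.45 whose difference did not pass the test (difference -0.79, limma adjusted p = 0.221). Bcl2 had medians of 176 in CD69- DP, 738 in CD69+ DP and 1380 in SP4 arrays, with the larger change first (2.01 and 0.87, difference -1.14, adjusted p = 0.00555). Samhd1 had medians of 55.5 in CD69- DP, 198 in CD69+ DP and 1220 in SP4 arrays, with the larger change second (1.69 and 2.65, difference 0.96, adjusted p = 0.00711). Akr1c18 was low until SP4, with medians of 34.6 in CD69- DP, 41.8 in CD69+ DP and 550 in SP4 arrays, and changed by 0.33 and then 3.49.

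**Figure D5:**
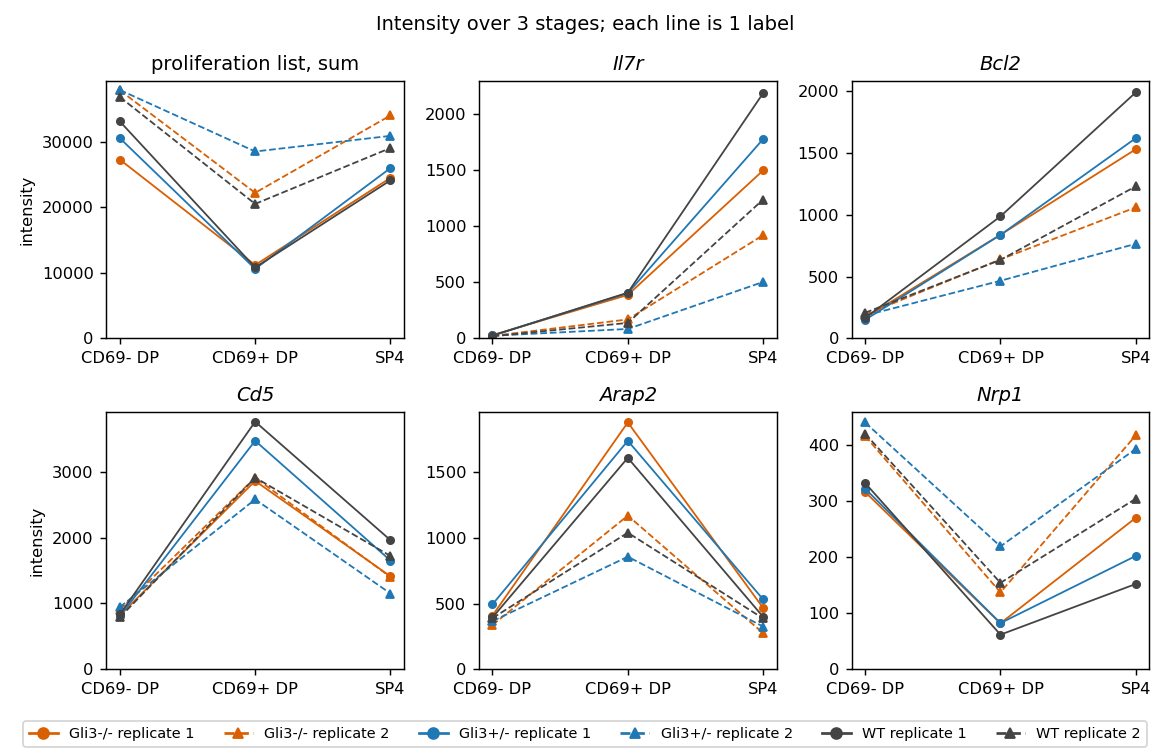
Intensity (y axis, from 0) of the summed proliferation list and of 5 genes in CD69- DP, CD69+ DP and SP4 arrays (x axis), 1 line for each genotype and replicate number. Il7r and Bcl2 climb through both steps, Cd5 and Arap2 peak in CD69+ DP arrays, and the proliferation sum and Nrp1 are lowest there.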

How the data were processed

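Thymocytes of each fetal thymus label were stained for CD4, CD8 and CD69 and sorted, and their RNA was hybridised to the Mouse Gene 2.0ST array of Affymetrix. The authors normalised the arrays with RMA in the oligo package, of which no source used here gives the versions, annotation or genome build, and deposited linear intensity values for 41345 rows (array medians 59.29 to 65.82). The plan had assumed log2 values, and log2 was taken here. Of the rows, 23521 had a single gene symbol, 1820 had several and 16004 had none, and only the first kind was tested. The row with the highest mean stood for each of 1082 genes with more than 1 row, which left 22180 genes. Gene names came from the platform annotation and sequences from RefSeq (GRCm38.p6).

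The fit was limma 3.58.1 in R 4.3.3 with genotype, replicate number and population as terms (7 residual and 6.63 prior degrees of freedom). The block on replicate number was set by the design, and the deviations of CD69+ DP and SP4 arrays with the same thymus label were correlated in each of the 6 labels (r = 0.13 to 0.43). Interactions with genotype and number used the same 12 arrays, and the test of both steps all 18. Alternatives were other blocks, normalisations, filters, tests and arrays left out. The procedure was also run on simulated data with independent noise for each array. That simulation lacks the correlation between arrays of the same label, so it cannot speak to it. Of 591 list entries in 30 lists, 537 were measured and 54 were not analysed here. The members and lists were chosen with earlier results of these data known, so no p-value is given for a list.

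Named genes were Cd4, Cd8a, Cd8b1, Cd69, Il7r and Cd40lg, up to 6 called members of each list with the largest change, the 15 higher and 15 lower called genes with the largest change, a mean at or above the median gene and no overlap between populations, and up to 8 genes of each interaction or direction of the second difference, without predicted genes, receptors of smell, small RNAs and TCR segments. Foxp3, Zbtb7b, B2m and C1qa were examples of list members not called. Array number limits the precision.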

Additional observations from a re-analysis of the deposited data

Results flagged for a closer look

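Each named gene was examined in the 6 arrays of each population for a single array far from the others. Of 326 gene and population sets tested, 20 had one, where chance alone gives about 1 in 20. The values are given with that of the nearest array in brackets and were not explained further.

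WT SP4 replicate 1 stood apart for Cd8a at 1120 (1940), Cd8b1 at 1720 (2640), Myb at 1110 (1840), Ikzf3 at 497 (649) and Bcl6 at 283 (472), all below the other SP4 arrays, and for Bcl2l11 at 520 (357), above them. Gli3-/- SP4 replicate 1 was low for H2-K1 at 233 (390), S100a8 at 126 (495) and S100a9 at 84.2 (209). Gli3-/- SP4 replicate 2 was high for Klf2 at 452 (302), Cst7 at 291 (146), Cd163l1 at 394 (266) and Kit at 172 (131).

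Among CD69+ DP arrays, Gli3+/- replicate 1 was high for S100a9 at 146 (50.8), Ngp at 53 (31.8) and Camp at 44.7 (30.6), 3 neutrophil genes. WT replicate 1 was high for Izumo1r at 284 (202) and Spi1 at 100 (89.6), WT replicate 2 low for Oas2 at 48.8 (65.3), and Gli3+/- replicate 2 high for Hells at 410 (207). The change between populations also differed between replicate numbers for 28 genes by the test of the interaction.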

How the results depend on the processing

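Counts below are all genes called, then those higher and those lower in SP4. Against 2548 genes (1770 and 778), there were 1476 (1085 and 391) without the replicate block, 1180 (815 and 365) with the methods' t-test (unpaired, which the methods name for statistics in general, not for the arrays, where they name limma) after Benjamini-Hochberg adjustment, 727 (594 and 133) in replicate number 2 alone, 645 (526 and 119) in Gli3-/- alone, 129 (112 and 17) in Gli3+/- alone, 534 (420 and 114) in WT alone, and 161 (151 and 10) with a 2-fold minimum. Replicate number 1 alone gave 499 lower and quantile normalisation 1202 lower. Leaving out each array in turn gave 1879 to 2511 genes, 1379 to 1766 higher and 500 to 756 lower. The subsets hold fewer arrays. Leaving out arrays gave 0 to 1 gene that differed between genotypes, the 1 without WT SP4 replicate 1, 0 to 37 between replicate numbers (44 with quantile normalisation) and 1910 to 2700 between steps (1684 without the replicate block). Of the 155 called genes under the naming rule none reversed in these alternatives, and 32 lost their call without the replicate block and 4 with quantile normalisation. Leaving out 1 array cost 4 to 11 of them their call, among Bid, C1qb, Camp, Cflar, Fdft1, Fdps, Gimap7, Ier3, Ifit2, Il1r1, Mvd, Oas2, Oasl2 and Retnlg. Signs turned for genes not called. Cd4 was 0 with cyclic loess, -0.29 in number 2, -0.01 in Gli3-/- alone and -0.05 to 0.11 with each array left out in turn, at or below -0.01 without WT or Gli3+/- CD69+ DP replicate 1 (-0.03 and -0.05) and without Gli3+/- or Gli3-/- SP4 replicate 1 (-0.01 and -0.05), and Cenpf was -0.05 in number 2. Dim signal limited the neutrophil (12 of 18 members below the median gene), macrophage (13 of 21) and natural killer lists (8 of 10) and those of other cells.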

Other observations

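A group of cystatin genes outside the naming rule was chosen after its values were seen. Stfa1 (log2 3.70), Cstdc4 (3.69), Stfa2l1 (3.13) and Stfa3 (2.78) encode stefins that are abundant in neutrophils, and their SP4 and CD69+ DP arrays overlapped. They are close copies of each other, so their probes may share signal.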
